A study of Arabidopsis thaliana with 18 samples.

Results

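Ubiquitin-fused ribosomal protein (r-protein) genes are the 5 Arabidopsis loci that make a protein of the cytosolic ribosome as the tail of a ubiquitin. They are RPS27aA (AT1G23410), RPS27aB (AT2G47110) and RPS27aC (AT3G62250) of the small subunit, and RPL40A (AT2G36170) and RPL40B (AT3G52590) of the large subunit. The loci were chosen by name. Of these 5, RPS27aA and RPL40A had a probe set named in the tables used here, each probe set with 1 locus, out of 13805 loci named by such a probe set. RPS27aB (also UBQ6), RPS27aC (also UBQ5) and RPL40B (also UBQ1) had no named probe set here and were not analysed, so what follows describes 1 gene of each subunit. The fusion genes share their ubiquitin part and have close copies, and how far a probe set also binds the transcripts of the copies was not tested.

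In eukaryotes such a fusion is translated as a single chain, with ubiquitin in front and the r-protein behind. Proteases that cut after ubiquitin release both parts, so that 1 mRNA feeds the ribosome and the pool of free ubiquitin, the small protein that marks others for the proteasome. The rest of the ubiquitin pool comes from polyubiquitin genes, which code for ubiquitin repeats. In yeast the S27a protein sits in the head of the 40S subunit and L40 joins the 60S subunit late, in the cytoplasm.

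The RNA came from aerial parts of seedlings that were 10 to 12 days old, grown on agar with 1% sucrose at 22 °C in cycles of 16 h light and 8 h dark and harvested after 6 h of light. Both groups received the same treatment. One group was labelled wild type, with no ecotype in the labels. The other was rpl24b, the allele stv1-1 in the Ws ecotype, whose deletion removes the r-protein gene RPL24B with several neighbouring genes and which carries a transgene for the small MYB protein CAPRICE at that place. According to the methods the wild-type ecotype was Columbia, but they also say that rpl24b grew beside its corresponding wild type. Which ecotype was used here is therefore not settled. If it was Columbia, strain, deletion, transgene and loss of RPL24B cannot be told apart, and a probe may bind the 2 strains' transcripts unequally. If it was Ws, deletion, transgene and loss of RPL24B still cannot be told apart. Each genotype had 3 plant samples, and each sample gave total RNA (TC), polysomal RNA (PL) and nonpolysomal RNA with monosomes (NP) on ATH1 arrays, 18 arrays in 6 groups. The translation state (TL) of an mRNA is its PL signal less its NP signal, both log2, in one plant sample.

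RPL24B gave signals of 9.98 to 10.27 in wild-type total RNA and 3.44 to 3.79 in rpl24b. In PL they were 10.79 to 10.87 and 3.30 to 3.58, and in NP 9.59 to 9.96 and 3.41 to 4.50. The arrays thus matched their genotype labels, while fraction and replicate labels are not checked by this gene. The array medians were 5.34 to 5.41 in TC and 4.90 to 5.07 in PL and NP, apart from the NP array of wild-type replicate 2, at 4.65. Of the 8 leaf markers on the list 1 was named here, RCA, the activase of Rubisco, at 13.90 to 13.99 in TC. The 1 named root marker of 8, EXP7, an expansin of root hairs, lay at 3.66 to 4.12, below the array medians. The 1 named seed marker of 3, the seed storage protein CRA1, spread from 3.72 to 7.79 in TC over both genotypes.

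The total RNA arrays showed whether the level of these transcripts differed between the genotypes. Both rose in rpl24b, with signals 2.89-fold higher for RPS27aA, from a wild-type level near background, and 1.44-fold higher for RPL40A. RPS27aA had total RNA signals (log2) of 4.01, 4.04 and 4.07 in wild-type replicates 1, 2 and 3. In rpl24b the signals were 5.43, 5.31 and 5.98. The groups did not overlap, and every rpl24b array stood more than 1 log2 unit above every wild-type array. The change was 1.53 ± 0.16 (SE, n = 3 per genotype, 95% interval 1.164 to 1.903, limma adjusted p = 5.47e-04).

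RPL40A had total RNA signals of 9.15, 9.09 and 9.18 in wild type. In rpl24b they were 9.61, 9.51 and 9.87. The groups did not overlap here either, with replicate 3 highest in each genotype. The change was 0.53 ± 0.11 (SE, 95% interval 0.27 to 0.78, adjusted p = 0.0151), and it no longer passed without wild-type replicate 2 (0.50, adjusted p = 0.0607). In bulk tissue, more cells that hold a transcript and more of it per cell cannot be told apart. Of all 22746 probe sets, 8.4% passed upward in TC (adjusted p under 0.05), 1.49% did so by at least 2-fold, as RPS27aA did, and 18.5% had groups that did not overlap in this direction.

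The wild-type signals of RPS27aA in TC lay below the array medians, within the range of the root marker EXP7 (3.66 to 4.12) and not far above the deleted RPL24B in rpl24b (3.44 to 3.79). They were not shown to be above background, so the size of the change and its rank are not fixed. The 2.89-fold is a lower bound only if probe binding is equal in both strains and spares the copies, which was not tested. RPL40A lay well above the medians. Levels of different probe sets cannot be compared directly. Since the size of the RPS27aA change is not fixed, the gap between the changes of the 2 probe sets is not fixed either. As computed, the rise of RPS27aA exceeded that of RPL40A by 1.01 ± 0.10 (SE, n = 3 per genotype) in TC. Per plant sample, RPS27aA minus RPL40A in TC was -5.14, -5.05 and -5.11 in wild type and -4.19, -4.20 and -3.90 in rpl24b. The genotypes did not overlap, and the difference was larger than the spread between samples. The exact permutation test, two-sided, gave p = 0.1 (0.2 adjusted over the 2 differences compared), which is the smallest p this test can give with 3 samples against 3.

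**Figure D1:**
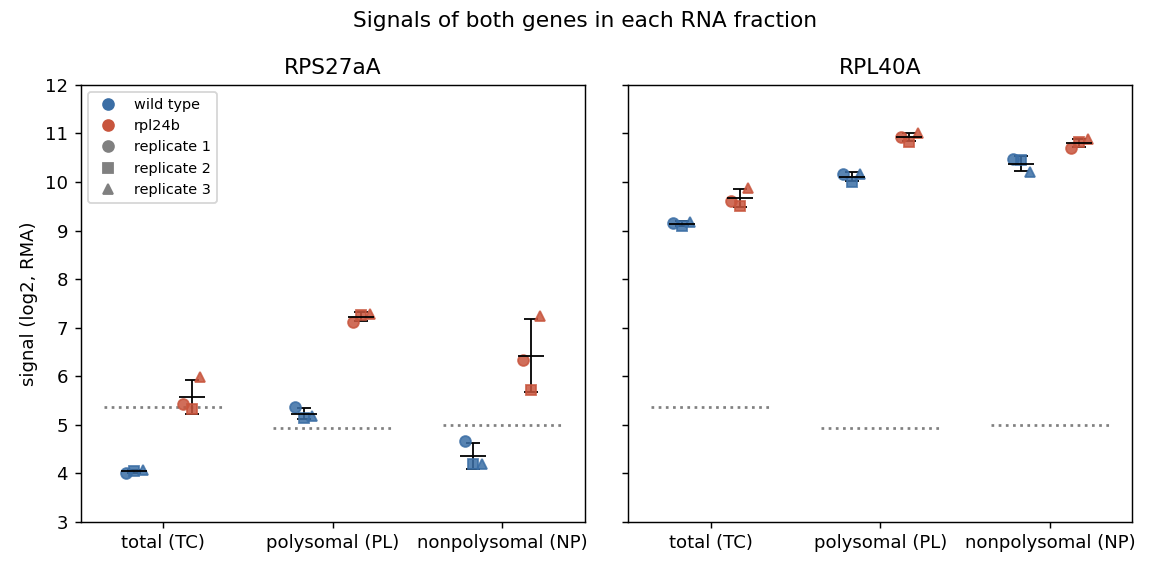
Signals (log2) of RPS27aA and RPL40A in total, polysomal and nonpolysomal RNA, with 1 point per array, the mean and SD of 3 replicates as black bars, and the middle array median of each fraction as a dotted line. RPS27aA in wild type lay below the dotted line in TC and NP, and in each fraction all rpl24b points of both genes lay above all wild-type points.

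The polysomal arrays showed how much of each mRNA was in the RNA carried by several ribosomes. RPS27aA was 3.99-fold and RPL40A 1.75-fold higher in the polysomes of rpl24b. For RPS27aA the PL signals were 5.35, 5.14 and 5.18 in wild type and 7.11, 7.27 and 7.28 in rpl24b. The replicates lay close together in both genotypes, with SDs of 0.11 and 0.09. The change was 1.998 ± 0.108 (SE, 95% interval 1.76 to 2.24, adjusted p = 1.94e-06).

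RPL40A had PL signals of 10.16, 10.01 and 10.17 in wild type and 10.92, 10.83 and 11.01 in rpl24b. The same-numbered samples differed by 0.76, 0.83 and 0.84, so the rise was of similar size in each replicate. It came to 0.81 ± 0.10 (SE, 95% interval 0.58 to 1.04, adjusted p = 6.19e-04). Of all probe sets 10.8% passed upward in PL, 1.71% by at least 2-fold as for RPS27aA, and 18.8% had groups apart in this direction. The seed marker CRA1 passed in this fraction too, at 3.96 to 5.46 in wild type and 5.63 to 6.99 in rpl24b (1.60 ± 0.39, adjusted p = 0.0171), and its part in the results for these 2 genes was not tested.

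In the nonpolysomal RNA, RPS27aA rose, with a signal 4.20-fold higher, whereas RPL40A did not pass the test. The NP signals of RPS27aA were 4.67, 4.19 and 4.20 in wild type and 6.33, 5.71 and 7.23 in rpl24b. The groups were apart, but rpl24b ranged over 1.5 log2 units, with replicate 3 at the top. The change was 2.07 ± 0.32 (SE, 95% interval 1.35 to 2.79, adjusted p = 0.00394). Its wild-type NP signals overlapped those of the deleted RPL24B in rpl24b (3.41 to 4.50), so the size of this fold is not fixed either. In PL the deleted gene gave 3.30 to 3.58, below every RPS27aA signal. The background of the RPS27aA probe set itself was not measured, so its wild-type PL signals were not shown to be above background either.

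RPL40A had NP signals of 10.47, 10.46 and 10.20 in wild type and 10.71, 10.81 and 10.88 in rpl24b. All 3 mutant arrays were above all 3 wild-type arrays, as for 17.6% of all probe sets. The difference of 0.42 ± 0.15 (SE, 95% interval 0.10 to 0.75) had an adjusted p of 0.113, and without wild-type replicate 2, the NP array with the low median, it was 0.47 (adjusted p = 0.108). With each array centred on its median the difference was 0.27 (adjusted p = 0.426), and the groups then overlapped. In this fraction 5.21% of all probe sets passed upward, and 2.11% by at least 2-fold as RPS27aA did.

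The central question of the study was whether the mutant loads mRNAs with ribosomes differently. In neither gene did TL pass the test between the genotypes. In RPS27aA the PL and NP signals rose by similar amounts. Its TL was 0.69, 0.95 and 0.98 in wild type and 0.78, 1.55 and 0.05 in rpl24b. The mutant values lay on both sides of the wild-type values, and the SD was 0.75 in rpl24b beside 0.16 in wild type. The change was -0.07 ± 0.30 (SE, adjusted p = 0.943), with a 95% interval from -0.72 to 0.58. A change anywhere within that interval was compatible with the 3 samples per genotype. The low value of rpl24b replicate 3 went with the high NP signal of that sample, and without it the difference was 0.30 (adjusted p = 0.678). Without rpl24b replicate 2, the highest value, the difference was -0.45 (adjusted p = 0.588). With each array centred on its median it was 0.04. The wild-type TL rests on NP signals not shown to be above background, so the change in TL is not firmly fixed.

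RPL40A had a TL of -0.31, -0.45 and -0.04 in wild type and 0.22, 0.02 and 0.12 in rpl24b. The groups did not overlap, as for 7.08% of all probe sets in this direction, and the same-numbered differences were 0.53, 0.47 and 0.16. The change of 0.39 ± 0.18 (SE, 95% interval 0.00 to 0.77) had an unadjusted p of 0.0483 and an adjusted p of 0.395 by limma. In TL 0.897% of all probe sets passed in either direction, 0.448% upward and 0.448% downward.

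Within a genotype, the sign of TL says whether the mRNA had a higher normalized signal in PL or in NP, where 0 is set by the normalization. RPS27aA had a TL of 0.87 ± 0.16 in wild type (SD, n = 3, limma against 0, adjusted p = 0.00622), where its NP signals were at the level of the deleted RPL24B, so the size of this ratio and its place among other mRNAs are not fixed. RPL40A had -0.27 ± 0.21 (SD, adjusted p = 0.125), higher than 20.9% of all probe sets. With quantile normalization it passed downward, at -0.46 (adjusted p = 0.00647). Of all probe sets 19.1% passed upward and 15.2% downward in this test in wild type.

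In rpl24b the TL was 0.80 ± 0.75 for RPS27aA (SD, adjusted p = 0.00962) and 0.12 ± 0.10 for RPL40A (SD, adjusted p = 0.518), above 91.3% and 68.3% of all probe sets. The tests against 0 used 1 estimate of spread for both genotypes, with an SE of 0.21 for RPS27aA in each. The p of RPS27aA in rpl24b therefore does not measure its own SD of 0.75. In rpl24b 18.8% of all probe sets passed upward and 18.3% downward. With quantile normalization the value of RPL40A in rpl24b turned to -0.095, and with centring it was 0.20, with no call in either. For RPS27aA the call ended without rpl24b replicate 1 (0.80, adjusted p = 0.0523) and without rpl24b replicate 2 (0.42, adjusted p = 0.132).

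The TL computed for RPS27aA was above that for RPL40A in all 3 wild-type samples, by 1.00, 1.40 and 1.02, with the same limit on the NP signal of RPS27aA. In rpl24b the difference was 0.57, 1.53 and -0.07, with no gap in replicate 3. The change in the gap was -0.46 ± 0.48 (SE), within the spread between samples (exact permutation test, two-sided, p = 0.5, adjusted over the 2 differences p = 0.5).

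**Figure D2:**
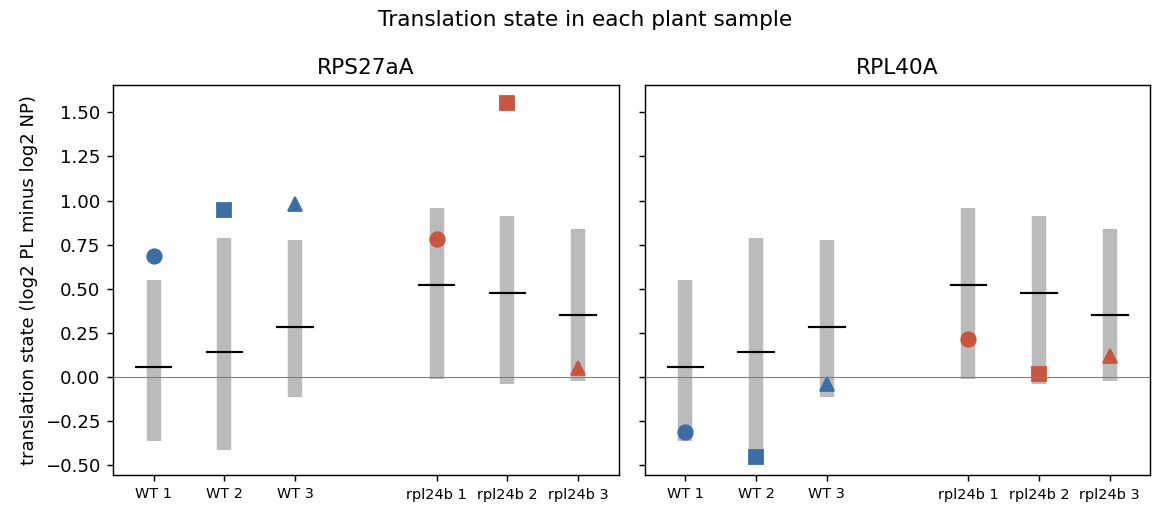
Translation state (log2 PL minus log2 NP) of RPS27aA and RPL40A in each of 6 plant samples, with the median (black line) and the quartiles (grey bar) of 216 r-protein probe sets in the same sample. RPS27aA lay above the grey bar in all 3 wild-type samples and was at 0.05 in rpl24b replicate 3, and RPL40A lay below the median line in every sample.

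Both mRNAs were set beside 216 probe sets of cytosolic r-proteins in the study's catalogue, which holds these 2 as well. The rise of RPL40A in TC was close to the list's median change of 0.43, while RPS27aA lay far above it. In TC 122 of the 216 passed upward and 4 downward, where 7.91% of all probe sets passed downward. Without wild-type replicate 2 only 45 passed upward, and over all 22746 probe sets the upward calls went from 1911 to 1045. Only RPP2C, an acidic protein of the ribosomal stalk, had a clearly larger change, at 3.68. RPS27aA (1.53, SE 0.16) and RPS9C, a 40S protein (1.37, SE 0.13), could not be ordered, and without rpl24b replicate 3 RPS27aA was at 1.33. RPL40A was number 70 of the 216.

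In PL 165 of the list passed upward and 4 downward, where 7.87% of all probe sets passed downward. The list's median change was 0.54. RPP2C was again highest (4.61), while RPS27aA (1.998, SE 0.108) and RPL30A, a 60S protein (1.84, SE 0.17), could not be ordered, and RPL40A was number 37. In NP 53 passed upward and 7 downward, where 3.39% of all probe sets passed downward, with a median of 0.27 in the list. Here RPS27aA (2.07) and RPL30A (2.06) could not be ordered given the SE of 0.32, and RPL40A was number 81.

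In TL 18 of the list passed upward and 3 downward, with a median of 0.22, against -0.065 over all probe sets. Passed or not, the change was above 0 in 151 of the 216 and in 9134 of all 22746. With a replicate block in the model 11 passed upward, and 4 to 12 did when 1 sample was left out. Over all 22746 probe sets the upward calls in TL went from 102 to 80 with the block. They were 33 to 117 when 1 sample was left out. RPL40A, at 0.39, was number 81 of the 216 and RPS27aA, at -0.07, number 166. Among all r-protein probe sets 116 passed upward in TC but not in TL, as both of these genes did. Another 6 passed upward in both and 12 in TL alone. Over all 22746 probe sets these counts were 1885, 26 and 76. Over the subunits, the 86 probe sets of the 40S subunit had a median change of 0.38 in TC and 0.16 in TL, and the 130 of the 60S subunit 0.46 and 0.25.

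In NP and in TC the difference between same-numbered samples was largest in replicate 3 for the list, for RPS27aA and for RPL40A. In NP the list's median r-protein difference was 0.10, 0.31 and 0.50 in replicates 1, 2 and 3. Beside it stood 1.66, 1.52 and 3.03 for RPS27aA and 0.24, 0.35 and 0.68 for RPL40A. In TC the list's median was 0.30, 0.41 and 0.58, beside 1.42, 1.27 and 1.905 for RPS27aA and 0.47, 0.42 and 0.69 for RPL40A. In PL replicate 3 was not apart, with list medians of 0.45, 0.59 and 0.57 and RPS27aA differences of 1.76, 2.13 and 2.11. In TL the list's median was 0.39, 0.29 and 0.09. RPL40A followed the same order, with its smallest TL difference in replicate 3.

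**Figure D3:**
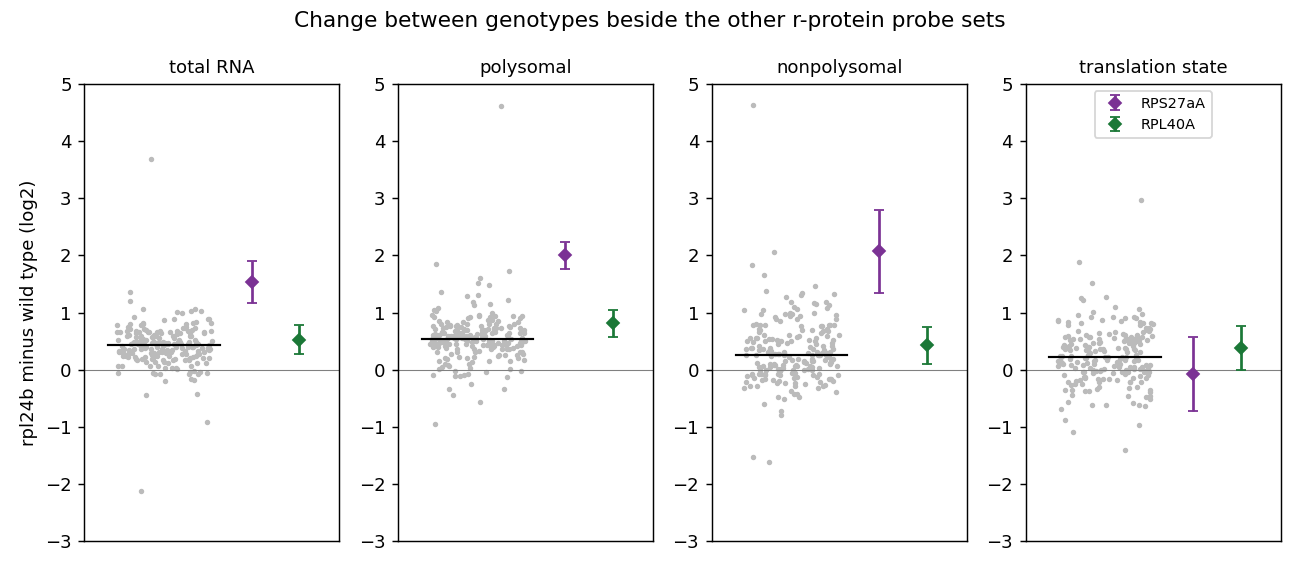
Change between genotypes (rpl24b minus wild type, log2) in total, polysomal and nonpolysomal RNA and in translation state for RPS27aA and RPL40A (diamonds with 95% intervals), beside 213 other r-protein probe sets (grey points, their median as a black line; RPL24B is left out). RPS27aA stood above all grey points but RPP2C in total and polysomal RNA, level with RPL30A and below RPP2C in NP, and within the grey points in TL, and RPL40A lay among them in all 4 panels. RPP0A, at -3.92 in NP, lay below the range drawn.

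**Figure D4:**
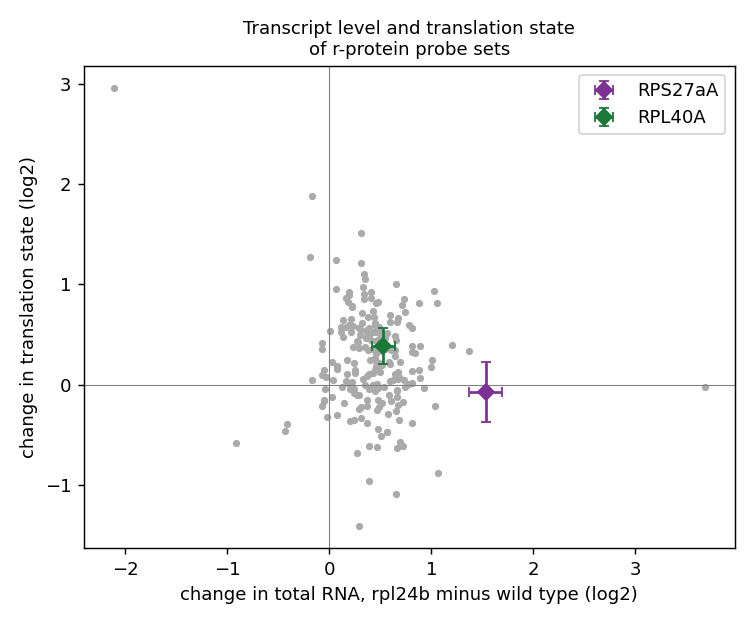
Change in total RNA (x, log2) and in translation state (y, log2) of 213 r-protein probe sets (grey; RPL24B is left out), with RPS27aA and RPL40A as diamonds with their SE. RPS27aA lay to the right at 1.53 with a TL change near 0, and RPL40A lay among the other points.

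The transcripts most like each gene were sought over 18 arrays, after each fraction was centred on its mean, among probe sets of 1 named locus. For RPS27aA they were TIM8 (Pearson r = 0.987), a chaperone of mitochondrial protein import, RPL35B (0.982) and RPP2B (0.982). For RPL40A they were RPS13B (0.972), RPL34C (0.972) and RPS3C (0.970). RPS27aA and RPL40A had an r of 0.918 with each other. The arrays share plant samples and the 2 genotypes, so these values are a description.

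TIM8 shared with RPS27aA a rise in both fractions with little in TL, with changes of 0.75 in TC, 0.91 in PL, 0.90 in NP and 0.01 in TL. RPL35B changed by 1.00, 1.31, 1.13 and 0.18 in the same measures. The 3 genes nearest to RPL40A had PL changes of 0.58 to 0.63, larger than their NP changes of 0.23 to 0.40, as RPL40A had. The r-protein list as a whole also had a larger median change in PL (0.54) than in NP (0.27). The genes named here for likeness were picked on the same arrays, so changes they share with a member follow in part from that choice.

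Of the genes that make, use or cut ubiquitin, few had a probe set named here. None of 12 polyubiquitin and ubiquitin-like fusion genes, 1 of 13 ubiquitin proteases and 3 of 9 activating and conjugating enzymes could be described, and most of these were named only through the study's lists of changed genes, so they do not stand for their groups. UBC8, a ubiquitin-conjugating enzyme, had TC signals of 11.16, 10.66 and 10.50 in wild type and 7.60, 7.51 and 7.17 in rpl24b. It fell by 3.35 (adjusted p = 1.17e-05), opposite in direction to both fusion genes. It also fell by 2.79 in PL and fell by 2.85 in NP, with a TL change of 0.06 ± 0.21 (SE, adjusted p = 0.933).

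The other named genes did not pass in any measure. UBC11 and UBC21, both conjugating enzymes, had TC changes of 0.03 and 0.01 and TL changes of 0.38 ± 0.20 and 0.26 ± 0.17 (SE). UCH2, a protease that cuts small groups from the end of ubiquitin, had 0.09 in TC and 0.17 ± 0.19 in TL.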

How the data were processed

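The authors deposited ATH1 signals as RMA values on the log2 scale, made with affy in Bioconductor. The deposited translation states, also log2, differed from PL minus NP by at most 0.001. Versions and the arrays normalized together are not given in the sources used here, and TC had another median, so fractions were fitted apart. The quantile step of RMA set signals relative to the average mRNA. Names came from the platform's table, matched by gene ID to RefSeq genes of TAIR10.1, and from the study's lists (13956 of 22746 with 1 locus). No coordinates are printed and no sequences were used, since the files name no build; RefSeq served for names and gene order.

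limma 3.58.1 under R 4.3.3 compared the genotypes, 3 samples each (lmFit, then eBayes), and p-values were adjusted by Benjamini-Hochberg over all probe sets. A probe set passed at adjusted p under 0.05, and no fold minimum was used. The method was tested on simulated data. The number of arrays limits the precision. A comparison of paralogs was planned but lacked a pair named here, so RPS27aA and RPL40A were compared instead. Members and lists were chosen with earlier results of these data known. Named genes are the members, passing members of the lists (at most 3 per direction), the 3 most similar probe sets and RPL24B. Others are named as neighbours in rank, position or list.

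The labels say that replicates were grown at different times with both genotypes side by side, so numbers pair them. Same-numbered samples had deviations that correlated at 0.14 to 0.39 in TC and 0.05 to 0.28 in PL. In NP the values were -0.19 to 0.06 and in TL -0.05 to 0.03. Samples of different numbers had -0.36 to -0.03 in TC and -0.24 to 0.12 in PL. In NP these had -0.14 to 0.16 and in TL -0.03 to 0.08. The study's methods have no block, so the replicate block was an alternative, beside leaving out each sample, centring, quantile normalization, trend and robust variance, a minimum signal and the deposited translation states.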

Additional observations from a re-analysis of the deposited data

How the results depend on the processing

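The 12 changes and loading values of RPS27aA and RPL40A were recomputed under 10 to 12 settings each, 137 values in all, of which 130 kept their direction and side of the threshold. The rises of RPS27aA in TC (1.33 to 1.66), PL (1.93 to 2.06) and NP (1.67 to 2.43) and of RPL40A in PL (0.76 to 0.85) passed in every setting run. RPS27aA fell below the minimum signal in TC, so that setting has no value for it. In TC RPL40A ran from 0.42 to 0.60, and the call was lost only at 0.50 (adjusted p = 0.0607) without wild-type replicate 2. The TL change of RPS27aA was 0.042 (adjusted p = 0.980) with centring and ran from -0.45 to 0.30 when 1 sample was left out. The lowest value came without rpl24b replicate 2 and the highest without rpl24b replicate 3. The TL of RPS27aA in rpl24b ran from 0.42 to 1.17. For RPL40A quantile normalization gave a TL of -0.46 in wild type (adjusted p = 0.00647) and -0.095 in rpl24b (adjusted p = 0.579). The cause was not tested. The replicate block changed no call of either gene, with a TL change of -0.07 for RPS27aA and 0.39 for RPL40A.

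Leaving out 1 sample moved the probe sets that passed from 3711 to 2186 to 3012 in TC. In NP they moved from 1957 to 1166 to 1887, and in TL from 204 to 61 to 220. The r-proteins that passed upward moved from 122 to 45 to 99 in TC. In NP they moved from 53 to 29 to 45, and in TL from 18 to 4 to 12. The lowest counts came without wild-type replicate 2 in TC, and the lowest counts over all probe sets in NP and TL without rpl24b replicate 3. In TL 11 r-proteins passed upward with the block, where 80 of all 22746 probe sets did. Among probe sets at or above the median signal 28 r-proteins passed upward, where 166 of all 11373 did. With centring the share of calls that were higher went from 60.6% to 40.1% in NP and from 50.0% to 67.1% in TL. Exact permutation tests of single genes cannot go below 0.1 with 3 against 3 and gave no call.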

Other observations

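Genes beside the measured loci on the chromosome were looked at in total RNA, up to 5 protein-coding genes to each side in the RefSeq order of the Columbia genome. Beside RPS27aA 8 probe sets of 7 loci were named here, with changes from 0.00 to 0.27 and 0 that passed by limma (0 with an unadjusted p under 0.05). Beside RPL40A 7 probe sets of 7 loci were named, with changes from -0.04 to 0.38. The 1 that passed was AT2G36160, the immediate neighbour, which is another r-protein gene, RPS14A of the 40S subunit, and rose by 0.38 ± 0.09 (SE, adjusted p = 0.0254).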
